A study of Homo sapiens with 2 samples.

Results

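Heparan sulfate is a sulfated sugar chain that cells attach to a small set of core proteins. The 37 genes described here build that chain, modify it, supply its precursors or encode the proteins that carry it. They were chosen by symbol from general knowledge of the pathway, with earlier results of these data known. All 37 were among the 33592 genes listed in at least 1 of the libraries. By role, 6 genes make the linker between protein and chain, 4 polymerise the chain, 9 epimerise or sulfate it, 2 edit it outside the cell, 5 supply precursors and 11 encode core proteins.

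The cells belong to H1 (WA01), a long-established line of human embryonic stem cells. One library came from unedited wild-type (WT) cells and 1 from cells labelled as a homozygous knockout (KO) of ZNF263, a zinc finger transcription factor deleted with Cas9. The KO sample's title and its deposited files carry different line names, and whether the cells are 1 clone is not stated. Live single cells were captured with barcoded beads in microwells, polyadenylated RNA was copied, and unique molecular identifiers (UMIs), which count captured RNA molecules, were deposited per gene and barcode. Both genotypes were grown under routine conditions with no treatment named.

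Synthesis of heparan sulfate starts when a xylose is placed on a serine of the core protein and extended to a short linker. EXT1 and EXT2 then polymerise the chain, NDST enzymes replace acetyl groups by sulfate, GLCE turns glucuronic into iduronic acid, and further enzymes add sulfate at single positions. The pattern of sulfate decides which growth factors bind, and in human pluripotent stem cells the chains are known as co-receptors through which FGF2 acts on its receptors. ZNF263 has been described in other human cells as a repressor of 3-O-sulfotransferase genes such as HS3ST1.

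UMIs were summed over 2 sets of barcodes and scaled to CPM (a gene's UMIs for a total of 1000000 UMIs). Kept cells are barcodes that reach 1000 UMIs and 500 genes and have no more than 20% of their UMIs from mitochondrial genes, 2935 in the WT and 2286 in the KO library, with medians of 1328 and 1289.5 UMIs. Shallow barcodes hold 250 or more but fewer than 1000 UMIs, 56837 in WT and 50551 in KO, with medians of 367 and 366 UMIs, and they hold 39.3% and 38.6% of all UMIs of their libraries, against 7.68% and 6.54% in kept cells. The libraries shared 20 barcode sequences among kept cells and 4665 among shallow barcodes. Each genotype has 1 library, so no test between them was possible, and every interval below is a 95% interval for counting error only. Sums over sparse barcodes (100 to fewer than 250 UMIs) and thin barcodes (10 to 99 UMIs) give 4 depths in all. Barcode sets of 1 library share its culture and its free RNA and are not replicates of each other. In summed counts, fewer cells of a type and less RNA per cell cannot be told apart.

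ZNF263 itself (chromosome 16, 3283491 to 3301401, GRCh38) was measured at 17.8 CPM in WT and 7.57 CPM in KO kept cells, and at 15.6 and 8.54 CPM in shallow barcodes. Its RNA was lower in the KO library but not absent, and which of its exons were removed is not stated in the labels. Of 14 pluripotent stem cell markers, all were measured in both libraries, and 5 were at least 1.5-fold higher in KO shallow barcodes, beside 2.79% of all genes, among them TDGF1 (log2 ratio 0.88), PRDM14 (0.73), DNMT3B (0.67) and TERF1 (0.65). Ratios below 0 were found for 4 of the 14 in shallow barcodes and 6 of the 14 in kept cells, SOX2 (-0.22 and -0.14) and LIN28B (-0.28 and -0.25) among them in both, the last 2 genes being named after their values were seen. The WT library held more RNA of neural genes. Summed over 15 neural markers, the level was 1055 CPM in WT and 486 CPM in KO shallow barcodes and 929 and 492 CPM in kept cells, and 9 of the 11 markers measured were at least 1.5-fold lower in KO in both sets (POU3F2 at a log2 ratio of -3.46, MEIS2 at -2.67, NR2F1 at -2.46 and DACH1 at -2.04 in shallow barcodes). Of all genes, 10.1% in shallow barcodes and 13.0% in kept cells were at least 1.5-fold lower. The other 2 neural markers measured, LHX2 and TUBB3, stayed within 1.5-fold in both sets. In kept cells their intervals include 0 and 1 of them was higher in KO (0.13). NEUROD1, of the same list, was at 0 UMIs in kept cells of both libraries. The primitive streak markers MIXL1 and EOMES, the only 2 of 5 measured, were lower too, at -1.91 and -1.75 in shallow barcodes. EOMES falls outside the rule for named genes. Among 7 fibroblast markers, 3 were measured and none passed 1.5-fold in shallow barcodes (THY1 0.47, COL1A1 0.48, COL1A2 -0.53), while COL1A1 had 0.81 in kept cells. The part of these marker differences in the heparan sulfate results was not tested, and values in barcodes without a neural marker UMI are given further on.

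Because ZNF263 binds G- and A-rich DNA, the 250 bases before the start of each member's transcripts were searched for the string GGGAGGA on both strands (TCCTCCC on the opposite strand), in RefSeq promoter sequence of GRCh38.p14. Windows were found for 30 of the 37 members. SULF1, EXT1, EXTL3, PAPSS2, SDC2, GPC3 and AGRN had none and were not searched. The window of HS3ST1 lies inside the annotated gene, which is on the minus strand and reaches 11434327 in RefSeq. All 250 bases of this window are annotated as exon, in a count that did not separate genes or strands. The string occurred in 7 of the 30 genes (23.3%), namely XYLT1, NDST2, HS3ST1, HS3ST3A1, SULF2, GPC4 and HSPG2, against 18.9% of all 27305 genes with a window. Counted by window, it was in 8 of 41 member windows (19.5%) and in 16.0% of all 35116 windows of the same length. Sequences of 4 members are printed here because they show each direction of difference with and without the string, which is in capitals, and they were picked with their ratios known. Each reads 5′ to 3′ on the strand of its gene. A match describes these letters only and is not a binding site, and an absent match says only that the letters are not in this window.

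HS3ST1, lower in KO, part of the window, chr4:11428929-11428958, minus strand: ccgctccTCCTCCCgcTCCTCCCcctcctc

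GPC1, lower in KO, chr2:240435413-240435662, plus strand: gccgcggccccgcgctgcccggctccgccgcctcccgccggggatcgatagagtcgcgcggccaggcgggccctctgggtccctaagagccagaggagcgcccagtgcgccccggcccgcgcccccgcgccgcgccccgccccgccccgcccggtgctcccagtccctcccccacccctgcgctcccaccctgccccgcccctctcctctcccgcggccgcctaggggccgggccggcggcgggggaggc

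XYLT1, higher in KO, chr16:17470961-17471210, minus strand: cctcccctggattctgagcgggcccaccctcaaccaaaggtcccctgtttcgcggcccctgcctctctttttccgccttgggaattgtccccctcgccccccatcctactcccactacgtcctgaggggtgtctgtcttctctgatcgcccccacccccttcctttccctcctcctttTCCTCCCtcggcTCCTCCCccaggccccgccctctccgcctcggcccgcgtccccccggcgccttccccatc

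SDC4, higher in KO, chr20:45348425-45348674, minus strand: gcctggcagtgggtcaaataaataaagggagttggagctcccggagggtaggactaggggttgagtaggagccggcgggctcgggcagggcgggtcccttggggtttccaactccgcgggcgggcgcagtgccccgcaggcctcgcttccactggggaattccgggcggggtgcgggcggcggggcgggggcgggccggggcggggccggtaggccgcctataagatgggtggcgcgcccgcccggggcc

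HS3ST1 and XYLT1 each hold the string 2 times, all on the opposite strand, and lay on different sides of WT in the KO library. GPC1 and SDC4 hold it 0 times and also differed in opposite directions. The G and C content of the printed 250-base windows was 84% for GPC1, 67.6% for XYLT1 and 73.6% for SDC4.

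Among the 33 heparan sulfate genes measured in both barcode sets, SULF1, SDC3 and GPC1 had the lowest KO over WT ratios and SDC4 the highest. A member counted as measured with a mean of at least 5 CPM over both libraries, which 33 of 37 reached in both barcode sets. In shallow barcodes 10 of the 33 were at least 1.5-fold lower in KO, beside 10.1% of all 10148 genes measured there, and 2 were at least 1.5-fold higher, beside 2.79%. Kept cells gave the same counts, 10 lower and 2 higher, beside 13.0% and 3.94% of 10129 genes. The lower genes thus made up 30.3% of measured members in either set. The median log2 ratio over the measured members was -0.42 in shallow barcodes and -0.39 in kept cells, where the median over all genes was -0.15 and -0.14. Ratios below 0 were found for 28 of the 33 in shallow barcodes and 24 of the 33 in kept cells, beside 68.8% and 65.2% of all genes, so in kept cells the share, 72.7%, was near that of all genes, and 17 of the 33 intervals there include 0.

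The share of the KO library taken by mitochondrial and ribosomal protein genes was larger, 29.7% of UMIs in kept cells against 26.5% in WT, so the scaling bears on these counts. Scaling to the total without those genes gave 8 lower and 3 higher members in kept cells, beside 10.6% and 5.1% of all genes. Scaling so that the median gene has a ratio of 1 gave 4 lower and 3 higher, beside 8.45% and 6.49%. That last scaling moves every log2 ratio up by 0.14 in kept cells and 0.15 in shallow barcodes.

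The 2 barcode sets named partly different members. Lower by at least 1.5-fold in both were B3GAT3, EXT2, NDST1, SULF1, SULF2, SDC3 and GPC1, and higher in both was SDC4. In shallow barcodes alone HS6ST2, GPC6 and AGRN passed on the low side and GLCE on the high side, and in kept cells alone EXTL3, SDC1 and GPC2 passed on the low side and XYLT1 on the high side. Of the 33 measured members, 29 had the same sign in both sets. The 4 that did not, XYLT2, EXTL2, HS3ST3B1 and PAPSS2, lay within 0.30 of 0 on the log2 scale. How many of all genes were called or kept their sign in both sets was not counted. Both sets come from the same libraries, and whether the shared calls and signs are particular to the members was not tested.

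**Figure D1:**
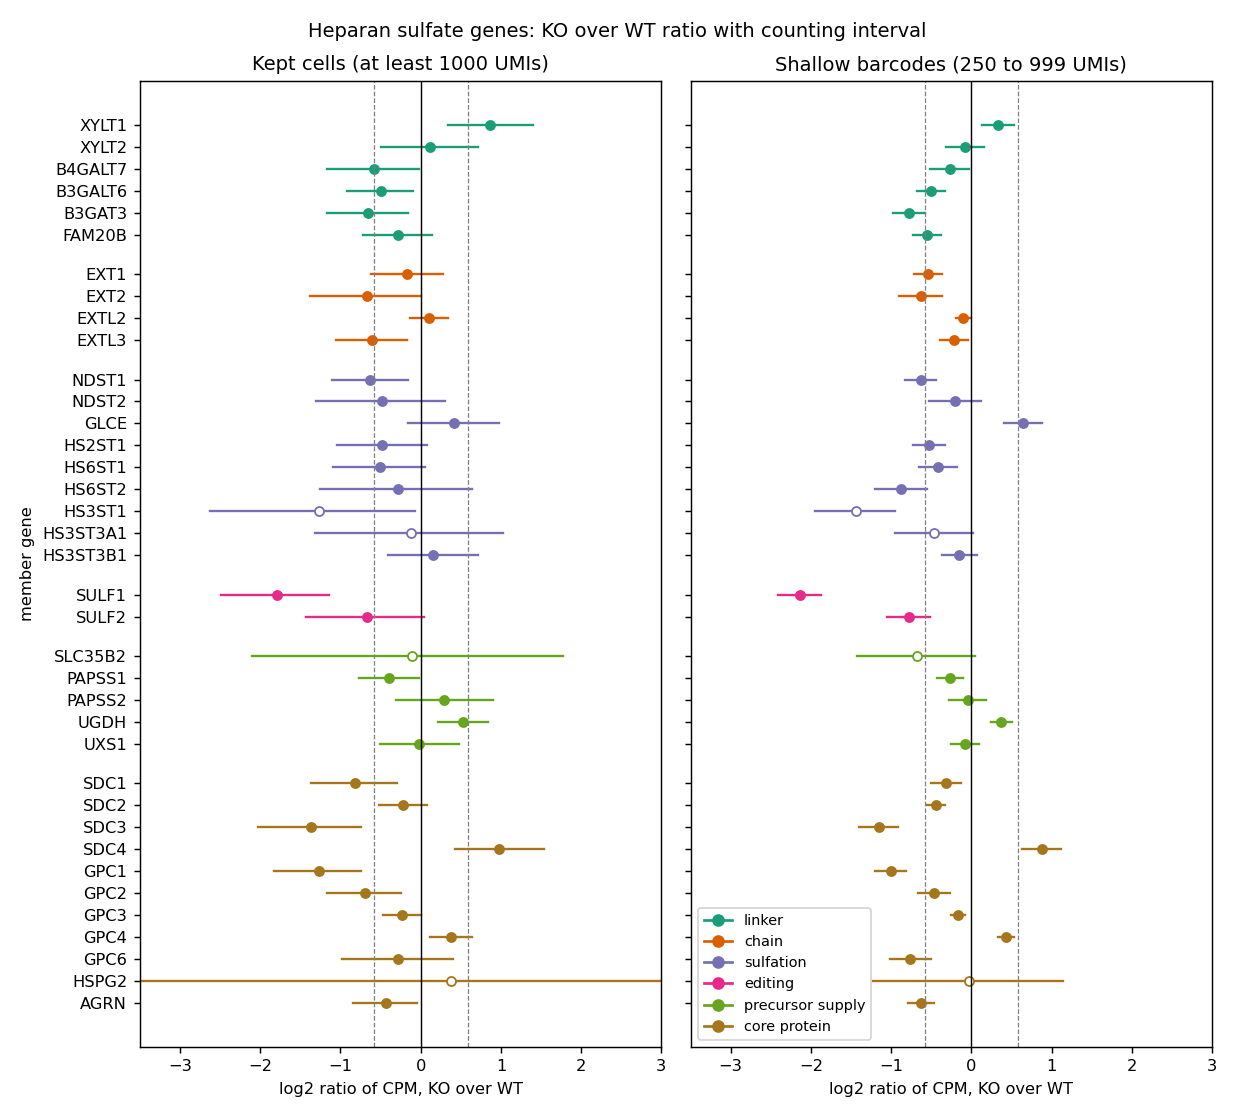
Log2 ratio of CPM, KO over WT, for each of the 37 members in kept cells (left) and shallow barcodes (right), coloured by role, with 95% counting intervals; open points are members under the minimum of 5 CPM, dashed lines mark 1.5-fold, and the interval of HSPG2 in kept cells runs past the axis. SULF1 lies farthest to the left and SDC4 is past the right dashed line in both panels.

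Of the 6 linker genes, 1 was at least 1.5-fold lower in each barcode set, which is near the share of all genes, and in kept cells 1 was higher. B3GAT3, which adds the last sugar of the linker, had 22.6 CPM in WT (interval 18.5 to 27.3) and 14.3 CPM in KO kept cells (10.6 to 18.8). In shallow barcodes it had 25.6 CPM (23.7 to 27.8) and 14.9 CPM (13.3 to 16.7), which is 1.72-fold lower (1.5 to 1.97). In sparse barcodes it had 24.8 and 14 CPM and in thin barcodes 25.4 and 13.8 CPM. The WT level was above the KO level in each of the 4 sets and the intervals overlapped only in kept cells. B3GALT6, the galactosyltransferase of the second galactose, was 1.41-fold lower in kept cells and 1.42-fold lower in shallow barcodes. FAM20B, the kinase that phosphorylates the linker xylose, had log2 ratios of -0.29 and -0.56, and B4GALT7, which adds the first galactose, -0.58 and -0.27, in kept cells and shallow barcodes.

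XYLT1, a xylosyltransferase that begins synthesis on the serine, went the other way. It had 53 UMIs in WT and 74 in KO kept cells, 11.4 CPM (interval 8.54 to 14.9) against 20.7 CPM (16.3 to 26.0). In shallow barcodes the levels were 16.6 CPM (15.0 to 18.3) and 20.9 CPM (19.0 to 22.9), a ratio of 1.26-fold (1.1 to 1.45). The KO levels of the sets were alike and the WT level was lower in kept cells. XYLT2, its paralog, had log2 ratios of 0.11 and -0.08, both with intervals that include 0. Its sign in shallow barcodes turns when ratios are scaled to the median gene.

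Of the 4 chain genes, EXT2 was at least 1.5-fold lower in both sets, and in kept cells the intervals of 3 of the 4 include 0. EXT2, which forms the polymerase with EXT1, had 58 UMIs in WT and 28 in KO kept cells, 12.5 CPM (interval 9.47 to 16.1) and 7.85 CPM (5.21 to 11.3), and the interval of that ratio reaches 1. In shallow barcodes it had 14 CPM (12.6 to 15.6) and 9.06 CPM (7.82 to 10.4), 1.55-fold lower (1.29 to 1.86). In sparse barcodes it was 1.46-fold lower (13.8 and 9.42 CPM) and in thin barcodes 1.36-fold lower (13.1 and 9.66 CPM). EXT2 was therefore lower in KO at each depth, with a size close to the 1.5-fold limit. EXT1 had log2 ratios of -0.17 (interval -0.62 to 0.27) in kept cells and -0.54 (-0.71 to -0.37) in shallow barcodes. EXTL3, which places the first N-acetylglucosamine of a heparan sulfate chain, had -0.61 and -0.22. EXTL2, a transferase that can end a chain by acting on the phosphorylated linker, differed little, with 69.0 and 74.3 CPM in kept cells and 86.8 and 81.0 CPM in shallow barcodes, and its sign differs between the sets and with the scaling.

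Among the enzymes that modify the chain, 5 of the 7 measured were lower in both sets and GLCE was higher in both. Of all genes, 68.8% in shallow barcodes and 65.2% in kept cells had ratios below 0, so that count is near the share of all genes. In kept cells 6 of the 7 intervals include 0. NDST1, an N-deacetylase and N-sulfotransferase that acts first on the new chain, had 25.2 CPM (interval 20.8 to 30.2) in WT and 16.3 CPM (12.3 to 21.0) in KO kept cells. In shallow barcodes it had 26.6 CPM (24.5 to 28.7) and 17.1 CPM (15.4 to 19.0), 1.55-fold lower (1.36 to 1.77). In sparse barcodes the levels were 23.9 and 15.6 CPM, and in thin barcodes 26.3 and 17.8 CPM. The KO level lay between 15.6 and 17.8 CPM and the log2 ratio between -0.56 and -0.63 over the 4 depths. NDST2, an enzyme with the same activities, had log2 ratios of -0.48 and -0.20, but 82.9% of its exon bases also belong to a read-through gene on the same strand, so its count is uncertain.

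GLCE, the C5-epimerase that makes iduronic acid, had 10.3 CPM (interval 9.09 to 11.7) in WT and 16.1 CPM (14.5 to 17.9) in KO shallow barcodes, a ratio of 1.56-fold (1.32 to 1.84). Kept cells held 54 and 55 UMIs, 11.6 CPM (8.72 to 15.2) and 15.4 CPM (11.6 to 20.1). The direction was shared, and only the larger set separated the intervals. HS2ST1, which sulfates the 2-O position of iduronic acid, was lower at log2 ratios of -0.48 in kept cells and -0.53 in shallow barcodes, and at -1.40 in kept cells of at least 2000 UMIs. The 6-O-sulfotransferases HS6ST1 and HS6ST2 had -0.51 and -0.29 in kept cells and -0.42 and -0.87 in shallow barcodes. HS6ST2 rested on 27 and 17 UMIs in kept cells and on 246 and 119 in shallow barcodes, where it was 1.83-fold lower (1.47 to 2.30).

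The 3-O-sulfotransferases add a rare sulfate that lets the chain bind antithrombin and some other proteins. HS3ST1 lay under the minimum of 5 CPM in both sets, with 25 UMIs in WT and 8 in KO kept cells and 144 and 47 UMIs in shallow barcodes. Its level was 6.05 CPM (interval 5.11 to 7.13) in WT and 2.23 CPM (1.64 to 2.96) in KO shallow barcodes, 2.72-fold lower (1.94 to 3.86). In kept cells it was 5.38 CPM (3.48 to 7.94) and 2.24 CPM (0.968 to 4.42). Sparse barcodes gave 6.50 and 2.52 CPM, and thin barcodes 5.93 and 2.15 CPM. HS3ST1 was thus lower in the KO library in all 4 sets. Of its 25 UMIs in WT kept cells, 4 lay in the 61 cells with at least 5 UMIs of CRABP1, a retinoic acid binding protein of the neural list, at 35.9 CPM (9.79 to 92.0), against 4.63 CPM (2.86 to 7.07) in the other WT cells. HS3ST3A1, also under the minimum, had 17 and 12 UMIs in kept cells and 95 and 61 in shallow barcodes, and HS3ST3B1 had log2 ratios of 0.15 and -0.15 with intervals that include 0. These last genes are near-identical in their catalytic part, so reads may be shared between them.

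The lowest ratio of all members belonged to an editing gene, SULF1. SULF1 and SULF2 encode secreted sulfatases that remove 6-O-sulfate from finished chains at the cell surface and so change which ligands bind. SULF1 (chromosome 8, 69466781 to 69660912) had 108 UMIs in WT and 24 in KO kept cells, 23.2 CPM (interval 19.1 to 28.0) and 6.73 CPM (4.31 to 10.0), 3.45-fold lower (2.20 to 5.62). In shallow barcodes it had 720 and 145 UMIs, 30.3 CPM (28.1 to 32.6) and 6.88 CPM (5.80 to 8.09), 4.4-fold lower (3.68 to 5.30). The WT intervals lay wholly above the KO intervals in both sets. Thin barcodes gave 30.6 and 7.74 CPM, and sparse barcodes gave 25.2 and 8.91 CPM, 2.82-fold lower and the smallest difference among the sets. The 720 WT UMIs lay in 698 shallow barcodes with at most 3 in any 1 of them, and 20 barcodes held 2 or more, against 6 for GPC1 with 729 UMIs and 11 for EXT1 with 725.

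SULF2 differed less. Its levels were 11.2 CPM (interval 8.35 to 14.7) and 7.01 CPM (4.53 to 10.3) in kept cells, a ratio whose interval includes 1. Shallow barcodes gave 14 CPM (12.5 to 15.5) and 8.11 CPM (6.94 to 9.42), 1.72-fold lower (1.43 to 2.08). In sparse barcodes it had 13.9 and 7.40 CPM and in thin barcodes 14.3 and 9.20 CPM. Both sulfatases were lower in KO in all 4 sets, and their summed level was 44.2 CPM in WT and 15.0 CPM in KO shallow barcodes. Within that sum SULF1 took 68.4% of UMIs in WT (exact Clopper-Pearson interval 65.5 to 71.2) and 45.9% in KO (40.3 to 51.6). In kept cells the shares were 67.5% and 49.0%.

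**Figure D2:**
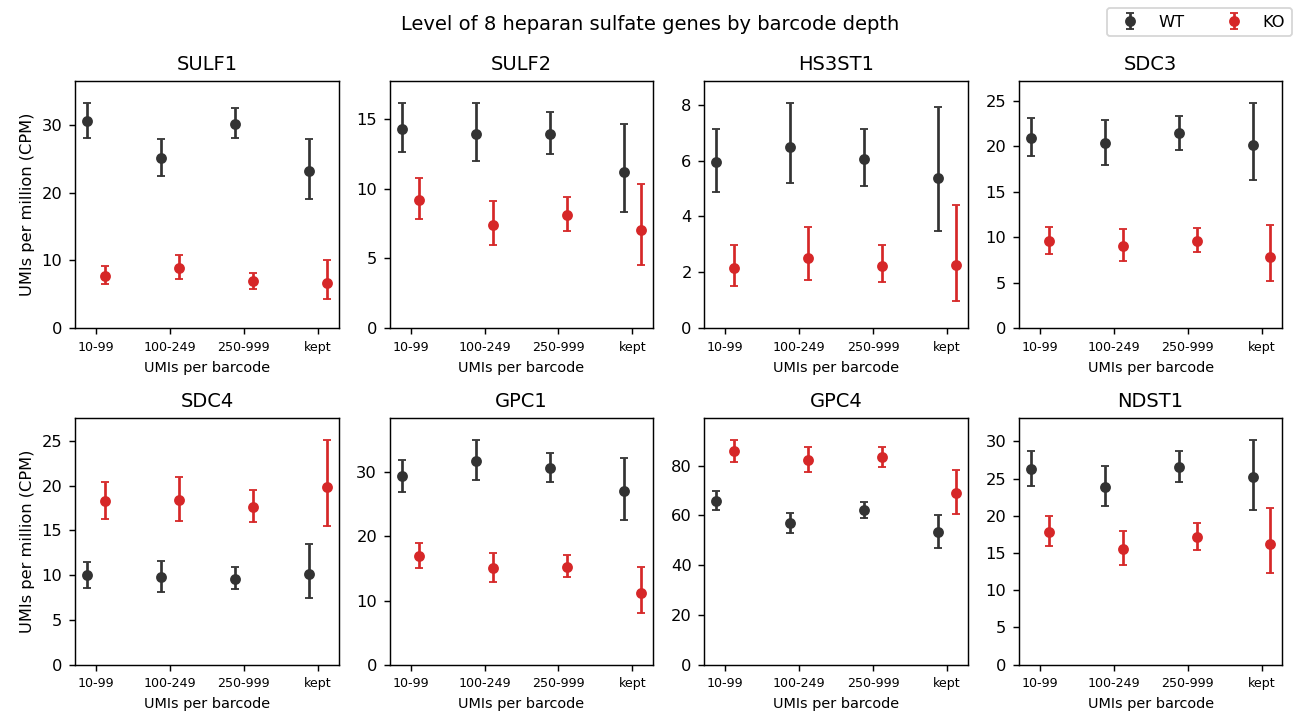
Level in CPM of 8 members in WT (black) and KO (red) by barcode depth, from thin barcodes (10 to 99 UMIs) through sparse and shallow barcodes to kept cells, with 95% counting intervals; each panel has its own vertical axis from 0. WT lies above KO for SULF1, SULF2, HS3ST1, SDC3, GPC1 and NDST1 at every depth, and KO lies above WT for SDC4 and GPC4.

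Of the 4 measured genes of precursor supply none passed 1.5-fold in either set, and 3 had ratios below 0 in shallow barcodes. UGDH, which oxidises UDP-glucose to the UDP-glucuronic acid used by the polymerases, had 36.1 CPM (interval 30.9 to 42.0) in WT and 52.1 CPM (44.9 to 60.2) in KO kept cells. The shallow barcodes gave 35.6 CPM (33.3 to 38.1) and 46.1 CPM (43.3 to 49.1), a ratio of 1.3-fold (1.18 to 1.42). UGDH was higher in KO in both sets with intervals that did not overlap, though under 1.5-fold. PAPSS1, which makes the sulfate donor PAPS, was lower, at log2 ratios of -0.39 and -0.27. PAPSS2, the second PAPS synthase, and UXS1, which makes UDP-xylose, had ratios of 0.29 and -0.02 in kept cells and -0.05 and -0.08 in shallow barcodes, whose intervals include 0 and whose negative values turn positive with the scaling to the median gene. SLC35B2, the Golgi transporter of PAPS, had 7 and 5 UMIs in kept cells and 47 and 26 in shallow barcodes, under the minimum. UMIs of the 5 genes summed to 108.5 CPM in WT and 111 CPM in KO shallow barcodes, sums in which UGDH is the one gene higher in KO.

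Among measured members, core proteins held the largest differences in both directions after SULF1. Syndecans span the membrane and glypicans are held by a lipid anchor, while perlecan (HSPG2) and agrin (AGRN) are secreted. SDC3, the syndecan known best from the nervous system, had 94 UMIs in WT and 28 in KO kept cells, 20.2 CPM (interval 16.3 to 24.7) and 7.85 CPM (5.21 to 11.3), 2.58-fold lower (1.67 to 4.08). The shallow barcodes held 21.4 CPM (19.6 to 23.4) and 9.63 CPM (8.35 to 11.0), 2.23-fold lower (1.89 to 2.63). In sparse barcodes it had 20.4 and 9.0 CPM and in thin barcodes 21.0 and 9.55 CPM. The SDC3 intervals of the libraries did not overlap at any depth.

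SDC4, a widely expressed syndecan found at focal adhesions, went the opposite way. Kept cells held 47 UMIs in WT and 71 in KO, 10.1 CPM (interval 7.43 to 13.4) and 19.9 CPM (15.5 to 25.1), 1.97-fold higher in KO (1.34 to 2.91). Shallow barcodes gave 9.63 CPM (8.42 to 11.0) and 17.6 CPM (15.9 to 19.5), 1.83-fold higher (1.55 to 2.17). In sparse barcodes the levels were 9.75 and 18.4 CPM and in thin barcodes 9.98 and 18.3 CPM. SDC4 was the only member past 1.5-fold on the high side in both barcode sets, and its intervals were separate at all 4 depths. SDC1, the main epithelial syndecan, had log2 ratios of -0.82 in kept cells and -0.31 in shallow barcodes, and SDC2 had -0.22 and -0.44.

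GPC1 was the glypican with the largest difference. It had 126 UMIs in WT and 40 in KO kept cells, 27.1 CPM (interval 22.6 to 32.3) and 11.2 CPM (8.01 to 15.3), 2.42-fold lower (1.68 to 3.54). Among shallow barcodes the levels were 30.7 CPM (28.5 to 33.0) and 15.3 CPM (13.6 to 17.0), 2.01-fold lower (1.76 to 2.30). In sparse barcodes it had 31.8 and 15.0 CPM and in thin barcodes 29.4 and 16.9 CPM. Its WT and KO intervals were separate in each set. GPC1, like HS3ST1, had a higher level in the small group of CRABP1-rich WT cells: the 61 cells held 12 GPC1 UMIs, 107.8 CPM (55.7 to 188), against 25.1 CPM (20.7 to 30.2) in the other 2874. These 2 members were named for this after their values were seen, and HS3ST1 had only 4 UMIs there. Other members also differed there in both directions on few UMIs, such as HS2ST1 (44.9 against 16.1 CPM) and NDST1 (8.98 against 25.6 CPM), with overlapping intervals. Only 4 KO kept cells held at least 5 CRABP1 UMIs, and without such cells in either library GPC1 stayed more than 1.5-fold lower in KO. The other 2874 WT cells still held 1775 CRABP1 UMIs, and the part of CRABP1-expressing cells in the GPC1 difference was not tested.

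GPC4 was the one glypican higher in KO in both sets, though in kept cells of at least 2000 UMIs its log2 ratio was 0.10, as was that of GPC3. It had 53.1 CPM (interval 46.7 to 60.2) and 68.9 CPM (60.6 to 78.1) in kept cells, and 62.0 CPM (58.8 to 65.2) and 83.4 CPM (79.5 to 87.4) in shallow barcodes, 1.35-fold higher (1.25 to 1.44). In no barcode set did the libraries' intervals overlap. GPC3, its neighbour on the X chromosome, had log2 ratios of -0.23 and -0.17, and GPC2 had -0.70 and -0.46. GPC6 had -0.28 in kept cells and -0.76 in shallow barcodes but -0.02 in sparse barcodes, so its lower level rested on part of the depths. Of the secreted core proteins AGRN had log2 ratios of -0.44 and -0.63, and HSPG2 held 1 UMI per library in kept cells and 15 and 13 in shallow barcodes.

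The make-up of both membrane families therefore differed between the libraries more than their totals did. Shares of UMIs within a family are not adjusted for transcript length, so they are compared between libraries and not between genes. SDC4 took 8.06% of syndecan UMIs in WT shallow barcodes (interval 7.09 to 9.13) and 18.8% in KO (17.1 to 20.6), and SDC3 went from 18.0% (16.6 to 19.4) to 10.2% (8.94 to 11.7). GPC4 took 26.6% of glypican UMIs in WT (25.4 to 27.8) and 38.7% in KO (37.3 to 40.2), and GPC1 13.2% (12.3 to 14.1) and 7.10% (6.37 to 7.88). Kept cells gave 9.85% and 23.8% for SDC4, 19.7% and 9.40% for SDC3, 26.9% and 39.8% for GPC4, and 13.7% and 6.47% for GPC1. These shares do not depend on how the libraries are scaled. The summed glypican level, in contrast, was 233 CPM in WT and 215 CPM in KO shallow barcodes, a log2 ratio of -0.11 that turns positive under the scaling to the median gene, and the syndecan sum was 119 and 94.0 CPM.

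**Figure D3:**
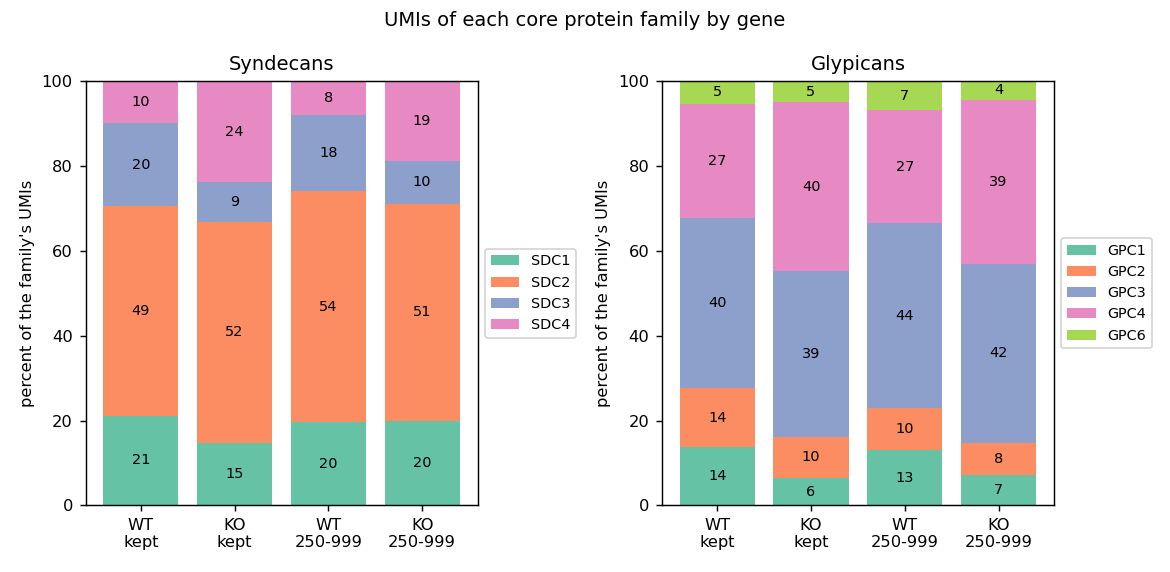
Percent of the UMIs of the 4 syndecans (left) and 5 glypicans (right) that each gene took, in WT and KO kept cells and shallow barcodes; numbers in the bars are rounded percents. The SDC4 and GPC4 segments are larger and the SDC3 and GPC1 segments smaller in the KO bars of both sets.

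Values were also taken apart by whether a barcode held a UMI of the 15 neural markers, a split added after the neural difference had been seen. Barcodes with none were 38092 WT and 41455 KO shallow barcodes and 1009 and 1139 kept cells. In the shallow barcodes so chosen SULF1 had 29.3 CPM in WT and 6.31 CPM in KO (log2 ratio -2.22), HS3ST1 5.80 and 2.08 CPM (-1.48), SDC3 21.9 and 9.46 CPM (-1.21), GPC1 30.8 and 15.8 CPM (-0.96) and SDC4 8.83 and 18.0 CPM (1.03). In the 18745 WT and 9096 KO shallow barcodes with a neural UMI the log2 ratios were -1.81 for SULF1, -1.22 for HS3ST1, -1.01 for SDC3, -1.19 for GPC1 and 0.54 for SDC4 (interval 0.08 to 1.01), the last under 1.5-fold. The signs were shared by both kinds of barcode. In kept cells without a neural UMI the log2 ratios were -1.51 for SULF1, -1.44 for SDC3, -1.35 for GPC1 and 1.31 for SDC4. They came from 10 to 37 UMIs per gene and library. HS3ST1 had only 8 UMIs in WT and 5 in KO there, at -0.81 with an interval that includes 0 (-2.77 to 0.98). The median over members measured there was -0.14, against -0.39 in all kept cells, while in shallow barcodes it was -0.36. The median over all genes was not computed for barcodes without a neural UMI. In all kept cells it was -0.14, the value that the members had here. A barcode without a neural UMI can still hold a neural cell at these depths, so the part of neural cells in these differences was not tested.

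**Figure D4:**
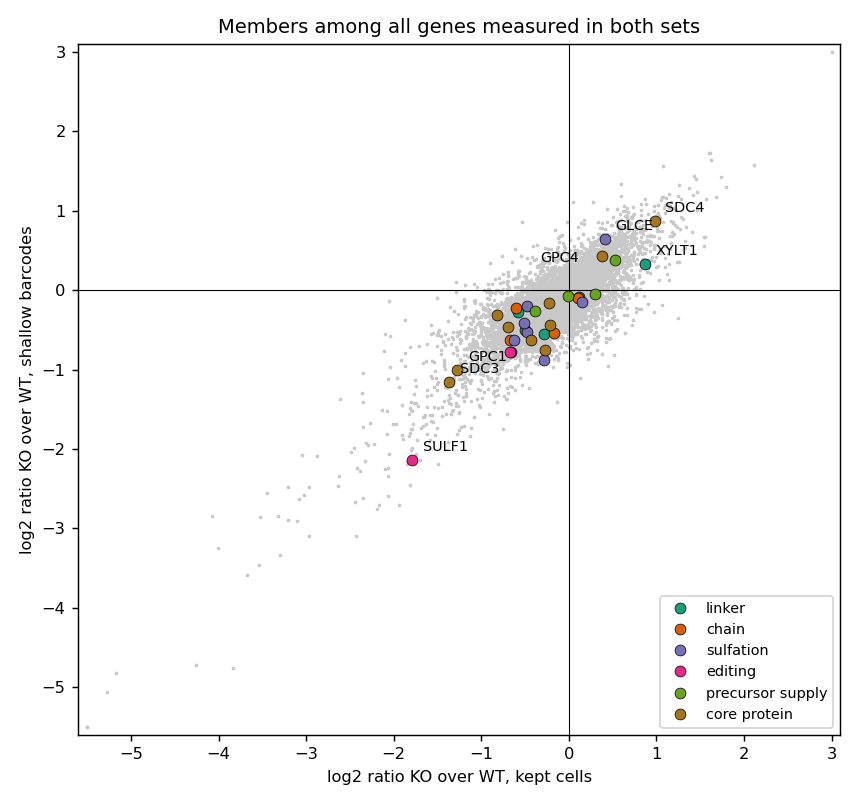
Log2 ratio, KO over WT, in kept cells (horizontal) against shallow barcodes (vertical) for the 9923 genes measured in both sets (grey, values past -5.5 or 3 drawn at that limit) and the 33 measured members (coloured by role). SULF1, SDC3 and GPC1 lie at the low end of the members and SDC4 at the high end; the sets come from the same libraries and share their free RNA.

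Other genes of the pathway were examined from a list of 17, of which 16 were listed in the libraries and 6 were measured in both sets. UGP2, which makes the UDP-glucose that UGDH uses, had 839 and 1191 CPM in shallow barcodes (log2 ratio 0.51) and 963 and 1239 CPM in kept cells (0.36). BPNT2, which clears the by-product of sulfation in the Golgi, had 0.37 and 0.41. Both were higher in KO, as was UGDH, and both stayed under 1.5-fold. Past 1.5-fold were TGFBR3, a part-time proteoglycan, which was lower in shallow barcodes (-0.73) but not in kept cells (0.21), and the 3-O-sulfotransferase HS3ST5, which was higher in kept cells (1.26, 18 and 33 UMIs) with 0.35 in shallow barcodes. Those 2 genes were named after their values were seen. The genes under the minimum included NDST4, with 69 and 17 UMIs in shallow barcodes, and HPSE, the heparanase that cuts chains, with 38 and 52.

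Lysosomal enzymes take heparan sulfate apart, and among them IDS was at least 1.5-fold lower in KO in both sets. IDS, the iduronate sulfatase, had 31.6 CPM (interval 29.4 to 34.0) and 19.9 CPM (18.0 to 21.9) in shallow barcodes and 26.7 and 17.7 CPM in kept cells. GUSB, the glucuronidase, had log2 ratios of -0.36 and -0.26, and NAGLU had 0.14 and 0.15.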

How the data were processed

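The authors deposited whole-number UMI counts per gene and barcode for each library, with no normalization. Tools in the submitters' processing notes are UMI-tools 1.1.2, STAR 2.7.10a, featureCounts 2.0.1 and Subread, with the genome build hg38. The sources used here do not give the gene annotation, strand setting or barcode filters, so overlapping and antisense genes cannot be separated. The KO table held 15 entries beyond its stated size, which were used. The deposited feature and barcode lists carry other content, names only. Counts were summed over kept cells and over the shallow, sparse and thin barcodes and scaled to CPM. Levels have exact Poisson intervals, ratios exact conditional binomial intervals and shares exact Clopper-Pearson intervals, all at 95%. They cover counting error only. Doublets were not removed. A ratio was called at 1.5-fold, for genes whose mean over the libraries reached 5 CPM. The functions were tested on simulated data. Python 3.11.15, NumPy 2.4.6, SciPy 1.17.1 and pandas 2.3.3 were used. Positions and promoters are from RefSeq GRCh38.p14, and exon overlaps from GENCODE annotation of GRCh38.

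Members, lists and thresholds were chosen with earlier results of these data known. Named genes were all measured members, with full values for those past 1.5-fold in both sets, up to 4 genes of each other list with the largest ratio at a mean of at least 10 CPM in shallow barcodes, and ZNF263. Most exceptions are stated where they occur. HS3ST1, though under the minimum, is given with full values. NEUROD1, LHX2, TUBB3, CRABP1, NDST4 and HPSE are also named outside these rules. The other members under the minimum are given by their counts. Alternatives changed the depth range, mitochondrial limit, scaling, minimum level, CRABP1-rich cells, deepest cells and thinning to 1000 UMIs. One gene of the list of lysosomal enzymes is not reported here.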

Additional observations from a re-analysis of the deposited data

How the results depend on the processing

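No paired analysis was possible because each genotype has 1 library, and none could be left out. The counts of members past 1.5-fold depended on the minimum level and the scaling. With a minimum mean of 20 CPM, kept cells gave 0 higher and 3 lower and shallow barcodes 0 higher and 4 lower, with 13 and 16 members tested. At a minimum of 2000 UMIs, kept cells gave 4 higher, and shallow barcodes of 500 UMIs or more gave 1 higher. The shares of all genes under these minimums were not counted, so these counts have no background beside them. The scaling to the median gene left 4 lower in kept cells. Without barcodes with a neural marker UMI, an alternative chosen after seeing the data, the median over members in kept cells was -0.14. It has no median over all genes beside it. Each of these but the scaling leaves fewer genes or barcodes, and the cause of the shifts was not tested. The other 49 counts and medians stayed within 1.5 times or within the interval of the reported value. SULF1, SDC3, GPC1 and SDC4 stayed past 1.5-fold in every alternative run, with log2 ratios from -2.24 to -1.50 for SULF1, -1.68 to -0.99 for SDC3, -1.35 to -0.85 for GPC1 and 0.83 to 1.31 for SDC4. SULF2 in kept cells ranged up to -0.25, SDC1 in kept cells to -0.31 and GPC6 in shallow barcodes to -0.02. At a minimum of 2000 UMIs, log2 ratios in kept cells moved to 0.15 for AGRN, -1.40 for HS2ST1, -0.56 for HS3ST3B1, 0.10 for GPC3 and 0.10 for GPC4. Depth limited the kept cells: EXT2 and SULF2, past 1.5-fold there on 28 and 25 KO UMIs, have intervals that include a ratio of 1.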

Other observations

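Chondroitin and dermatan sulfate chains use the same linker and some of the same core proteins. Of 16 genes for their synthesis, 7 were measured in shallow barcodes, all with ratios below 0, beside 68.8% of all genes, and 1 was at least 1.5-fold lower in KO, near the 10.1% of all genes. In kept cells 2 of the 6 measured had ratios above 0, and 5 of the 6 intervals include 0. That gene was CHST14, the dermatan 4-O-sulfotransferase, at a log2 ratio of -0.77 (177 and 92 UMIs), named after its value was seen. CHSY1, a chondroitin polymerase, had -0.33, UST, which sulfates the 2-O position, -0.10, and DSE, an epimerase, -0.03. The last 2 turn positive under the scaling to the median gene. Among 10 chondroitin sulfate core proteins, 3 were measured, and PTPRZ1, a receptor phosphatase of neural progenitors, had 216 CPM in WT and 135 CPM in KO shallow barcodes (-0.67). VCAN, the matrix proteoglycan versican, had 278 and 210 CPM (-0.40).

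Of 20 listed ligands and receptors that bind heparan sulfate, 13 were measured in shallow barcodes, where 4 were at least 1.5-fold lower in KO and 0 higher, beside 10.1% and 2.79% of all genes. FST, the activin antagonist follistatin, had 365 and 72.3 CPM (log2 ratio -2.33), SLIT2, a guidance ligand, 19.8 and 5.17 CPM (-1.94), and PTN, the growth factor pleiotrophin, 895 and 353 CPM (-1.34). The fourth was FGFR3, named after its value was seen, with 302 and 61 UMIs (-2.13). MDK, or midkine, had -0.45. FGF2, likewise named after its value was seen, had 38.3 CPM (interval 35.9 to 40.9) and 52.1 CPM (49.1 to 55.3), a ratio of 1.36-fold. In kept cells 5 of the 13 measured were at least 1.5-fold lower in KO and 0 higher, beside 13.0% and 3.94% of all genes. They were the same 4 and VEGFA, which was named after its value was seen. The log2 ratios there were -2.62 for FST, -2.22 for SLIT2, -1.21 for PTN, -1.71 for FGFR3, -0.48 for MDK and 0.18 for FGF2, the last with an interval that includes 0.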
